A study of Homo sapiens and Mus musculus with 20 samples.

Results

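Interferon-stimulated genes (ISGs) were followed through 12 RNA-seq libraries of IMR90 cells, in which A485, MS-275 or pyruvate was set against a control. The set held 41 genes, out of 17554 gene symbols listed in the IMR90 data. The members were chosen from genes known to respond to interferon, with earlier results of these contrasts in view, among them the low level of IFI6 after pyruvate. The fold changes and control levels that informed the choice are given here as a description. Members that pass the thresholds of a gene-by-gene test are counted, but no p-value is printed for a member and the set was not tested. Of the 41 members, 40 were listed for A485, 36 for MS-275 and 29 for pyruvate. IFI27 was listed in none, OAS1, OAS2, RSAD2 and CMPK2 only for A485, and IRF7, OASL, BST2, HERC5, SAMD9, IFI44L and XAF1 not for pyruvate.

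IMR90 is a line of human embryonic lung fibroblasts, and all its groups carried the label wild type (WT). A485 inhibits the catalytic site of the acetyltransferases p300 and CBP and was compared with Control2. MS-275 inhibits class I histone deacetylases and was compared with Control3. Pyruvate, which the study added to senescent cells, was compared with Control6. A second set of 8 libraries came from WT mouse muscle, where MS-275 was compared with Control4 and NALA (sodium lactate) with Control5. By the study's text both agents were injected into muscle, MS-275 into the gastrocnemius of female mice of an age between its young and old groups and NALA into aged mice. Doses, times and what the controls received are not in the labels. Every group had 2 libraries, and nothing in the labels says that they came from separate cultures or animals, so the errors measure the spread between libraries, which may be technical.

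Interferons are secreted proteins that cells release on sensing foreign or misplaced nucleic acid. Type I interferon binds a receptor of the subunits IFNAR1 and IFNAR2, whose kinases JAK1 and TYK2 phosphorylate transcription factors such as STAT2. Together with IRF9 STAT2 enters the nucleus and takes part in binding the interferon-stimulated response element (ISRE) in the promoters of ISGs. The products of ISGs bind or degrade viral RNA, block entry, trap virions or conjugate the ubiquitin-like protein ISG15 to other proteins, and senescent fibroblasts are known for expressing ISGs without infection.

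A core of the ISRE, written GAAANNGAAA with any base at N, was searched on both strands from 250 bases before to 50 bases after each start in the RefSeq promoters (GRCh38.p14). Of the 41 members 33 had an entry, and IRF7, OAS2, OASL, IFIT2, IFITM2, MX2, USP18 and TRIM22 had none. The core was present for 23 of the 33, or 69.7%, against 4.38% of all 27305 symbols and 3.57% of all 35116 promoters. The members were chosen from genes known to respond to interferon, so a high share goes with that choice and is a description. The stretches below are shown because the results turn on their genes: ISG15, IFI6, OAS3 and LGALS3BP were lower after pyruvate, PARP9 and PARP14 were higher after it, IFIT1 differed from its neighbour IFIT5, and BST2 was higher and OAS3 lower in both numbered pairs with MS-275. Each reads 5′ to 3′ on the strand of its gene, with the core or its reverse complement in capitals, and copies that share bases run together.
ISG15: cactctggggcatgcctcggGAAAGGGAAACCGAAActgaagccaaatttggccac
IFI6: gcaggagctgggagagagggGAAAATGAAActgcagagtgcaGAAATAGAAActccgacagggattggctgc
IFIT1: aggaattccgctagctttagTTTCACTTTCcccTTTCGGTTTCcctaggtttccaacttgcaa
LGALS3BP: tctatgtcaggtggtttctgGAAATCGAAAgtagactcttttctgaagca
PARP9: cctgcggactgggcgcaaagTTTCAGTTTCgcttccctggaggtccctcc
PARP14: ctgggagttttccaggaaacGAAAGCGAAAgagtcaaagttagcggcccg
BST2: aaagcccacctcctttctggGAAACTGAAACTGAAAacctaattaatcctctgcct
OAS3: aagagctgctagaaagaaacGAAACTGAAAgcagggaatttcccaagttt
They lay at chr1:1013364-1013419, plus strand (ISG15), chr1:27672256-27672327, minus strand (IFI6), chr10:89392487-89392549, plus strand (IFIT1), chr17:78979952-78980001, minus strand (LGALS3BP), chr3:122564312-122564361, minus strand (PARP9), chr3:122680790-122680839, plus strand (PARP14), chr19:17405725-17405780, minus strand (BST2) and chr12:112938311-112938360, plus strand (OAS3). The PARP9 stretch lay where PARP9 and its neighbour DTX3L, transcribed away from each other, begin and overlap. The same bases were found on the opposite strand in the promoter of DTX3L. Genes that were lower and genes that were higher after pyruvate both held the core, and a match describes letters, not binding. Once a trend with GC content and length was removed (below), LGALS3BP, PARP9 and PARP14 were no longer called. ISG15, IFI6, OAS3 and DTX3L still were.

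Values below are normalized read counts: the reads of a gene after division by a size factor that the library's genes share. Depth, summed over the genes in each list, was 24179065 to 46971227 reads for IMR90 and 10836858 to 14190054 for muscle. For levels, RPM is a gene's share of that sum in parts per 1000000, and RPKM is RPM per kilobase of exon. All 8 fibroblast markers were listed in every IMR90 comparison, and their summed level was 12878 to 32658 RPM, with 12878 and 13897 in A485 against 31424 and 31506 in Control2, and 24731 and 13504 in MS-275 against 29971 and 18541 in Control3. Of 11 markers of other cell types, 3 were listed for A485 and MS-275 and 1 for pyruvate, with a summed level of 1.41 to 6.97 RPM. Fewer cells with a response and less RNA per cell cannot be told apart in such bulk samples.

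Control levels differed between the 3 experiments by gene. IFI6, a mitochondrial and endoplasmic reticulum protein induced by interferon, stood at 10.8 and 38.6 RPM in Control2, at 14.8 and 77.1 in Control3, and at 248 and 263 in Control6. ISG15 showed the same order, with 19.6 and 36.8, then 20.1 and 81.2, then 207 and 239 RPM. Both libraries of Control6 lay above all 4 libraries of the other controls for these genes. MX1, a GTPase that blocks incoming viral nucleocapsids, had 1.51 and 9.80, then 1.58 and 10.4, then 21.8 and 19.2 RPM. PARP14, a mono-ADP-ribosyltransferase, went the other way, with 34.6 and 59.96, then 59.0 and 37.0, then 3.18 and 3.69 RPM. EIF2AK2 (PKR), a kinase activated by double-stranded RNA, did so as well, at 113 and 141, then 134 and 72.5, then 16.3 and 13.2.

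Per kilobase of exon, IFITM3, which restricts virus entry at endosomes, had the highest mean of the listed members in Control2 (114) and Control3 (170 RPKM). In Control6 IFI6 was first (265 and 281) and ISG15 second (239 and 276), and the ranges of these neighbours overlapped. IFITM3 followed at 182 and 198, below both. In Control2 the order after IFITM3 was IFITM2 (57.4 and 65.2), LGALS3BP (31.8 and 67.3) and ISG15 (22.6 and 42.5), of which IFITM2 lay below IFITM3 in both libraries, while LGALS3BP overlapped IFITM2 and ISG15 overlapped LGALS3BP. By RPM, IFITM3 (516 and 564) and LGALS3BP (445 and 461) lay above IFI6 and ISG15 in Control6. The exon length was 2844 bases for IFITM3, whose longest transcript has 1044, against 936 and 911 for IFI6 and 867 and 787 for ISG15. The order per kilobase in Control6 therefore depends on the length used. The 29 members listed in all 3 comparisons summed to 1022 and 1679 RPM in Control2, 1361 and 1978 in Control3 and 2181 and 2282 in Control6. Their median was 12.6 and 32.5, then 15.8 and 33.1, then 16.3 and 14.3 RPM. These controls were normalized separately, each with its own treatment, and the labels do not say whether they were sequenced together. The differences between them therefore cannot be told apart from differences between experiments.

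**Figure D1:**
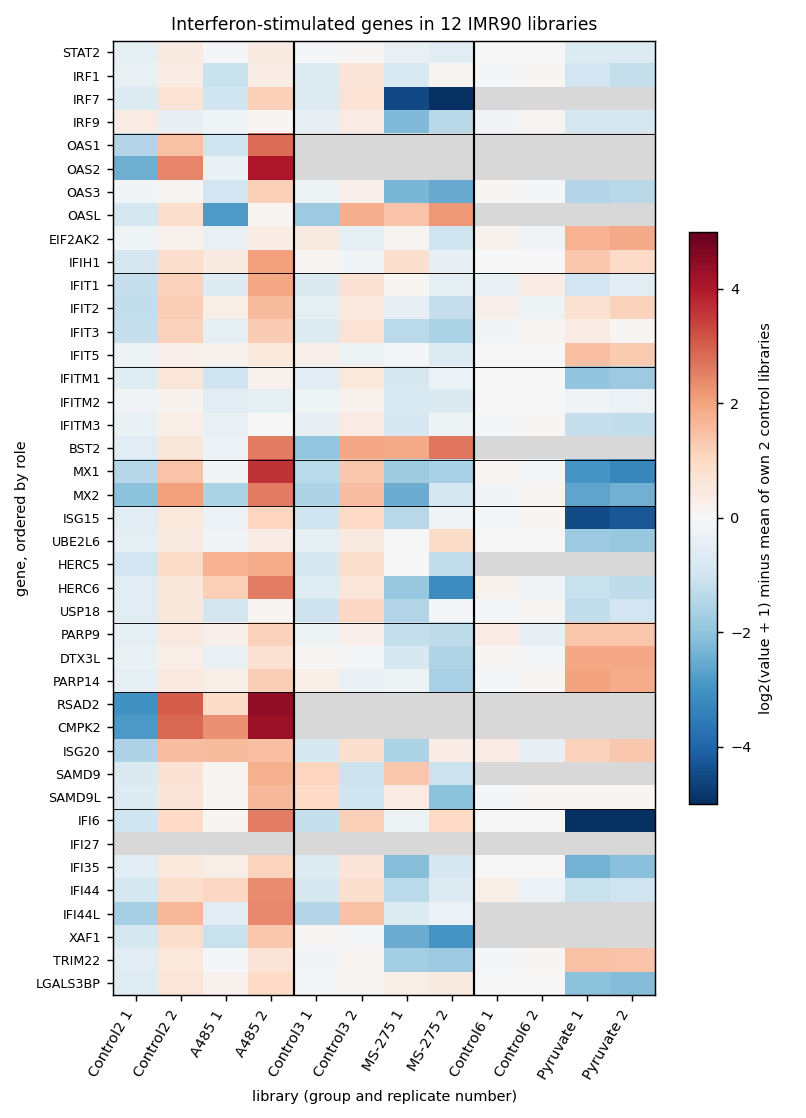
Heat map of the 41 members (rows, ordered by role, black lines between roles) in the 12 IMR90 libraries (columns), coloured by log2(value + 1) minus the mean of the 2 control libraries of the same experiment, with the colour scale ending at 5 in either direction and grey where a gene was not listed. With A485 the libraries numbered 2 are redder than those numbered 1 in both groups, and the pyruvate libraries show IFI6 and ISG15 in dark blue.

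In the A485 experiment the members differed by a median of 1.26 (Control2) and 1.36 (A485) on the log2 scale between the libraries numbered 2 and 1. Of the 40 members, 38 were higher in the library numbered 2 than in that numbered 1 in both groups, against 30.7% of all genes tested, and 23 were so by more than 1 on the log2 scale, against 270 of 16084 genes. OAS2, which makes the 2-5A messenger that activates RNase L, was 4.28 and 157 in Control2 and 21.9 and 469 with A485. CXCL10, an interferon-induced chemokine that is no member, was 4.28 and 420 in Control2 and 0 and 626 with A485. MKI67, a marker of dividing cells chosen after its values were seen, was 8396 and 2553 in Control2 and 1639 and 1919 with A485, and its part in the difference was not tested. In the MS-275 experiment the median difference of the members between the libraries numbered 2 and 1 was 1.04 in Control3 and -0.01 with MS-275. There 18 of 36 members were higher in the library numbered 2 in both groups, against 42.5% of all genes. MKI67 was 4235 and 380 in Control3 and 256 and 34.9 with MS-275.

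A485 was compared with Control2 to see how ISGs stand when p300 and CBP are inhibited. Most members had a higher mean with A485, and the difference was small beside the spread between libraries: 33 of 40 had a positive fold change, with a median of 0.62 on the log2 scale against 0.01 for all genes. IFI6 was 464 and 1853 in Control2 and 954 and 5521 with A485, a log2 fold change of 1.31 ± 0.94 (SE). MX1 was 65.3 and 470.0 in Control2 and 158 and 2136 with A485 (1.72 ± 1.37). For both genes the A485 library numbered 1 lay between the control libraries. HERC6, a HECT-type ubiquitin ligase, was 169 and 362 in Control2 and 568 and 1450.1 with A485 (1.87 ± 0.55), and IFI44, a GTP-binding protein, was 89.9 and 306 in Control2 and 342 and 861 with A485 (1.703 ± 0.68). With HERC5, the ligase that conjugates ISG15 in human cells (10.7 and 44.1 to 75 and 81.9), these were the 3 members whose A485 libraries both lay above both controls, which held for 30.4% of all genes. IFITM2 was the 1 member with both below (3983 and 5022 in Control2 and 3021 and 3146 with A485), against 30.7% of all genes.

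RSAD2 (viperin) and CMPK2, neighbours on chromosome 2 that act on nucleotides, had the largest fold changes with A485 and a wide spread. RSAD2 was 0 and 64.9 in Control2 and 14.3 and 174 with A485 (2.67 ± 2.09), and CMPK2 was 0 and 51.4 in Control2 and 34.6 and 143 with A485 (3.31 ± 1.83). Control library 1 held no read of either, so the size of these fold changes depends on the 1 added before the log. OASL, a relative of the OAS enzymes without their catalytic activity, was the member with the lowest fold change (9.63 and 34.3 in Control2 and 1.69 and 19.6 with A485, -1.38 ± 1.17). STAT2 at 3991 and 7473 in Control2 and 5195 and 7426 with A485 and EIF2AK2 at 4876 and 6743 in Control2 and 4485 and 7358 with A485 overlapped between the groups.

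By limma, 0 of 40 members were called (adjusted p under 0.05 and an absolute log2 fold change above 1), against 3.31% of all genes called higher and 7.06% called lower. At an unadjusted p under 0.05 there were 4 members of 40 and 4949 of all genes, and DESeq2 called 1 member and edgeR 0. The members' median was -0.21 without A485 library 2 and -0.18 without Control2 library 1, and 1.24 without either of the others. When all libraries were scaled to the same total, the all-gene median became 0.40 and the member median 1.02. Within replicate number, 8 members were more than 1 higher in both numbers (OAS2, IFIH1, MX1, HERC6, RSAD2, CMPK2, IFI6 and IFI44), where 6.05% of all genes were, and 0 members were more than 1 lower, where 9.84% of all genes were.

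MS-275 was compared with Control3 within replicate number, although the labels do not say that a number marks a shared culture. Members were mostly lower: 25 of 36 were lower in both numbers and 5 were higher in both, against 6415 and 6125 of all 15883 genes. IRF7, the transcription factor that amplifies type I interferon, was 40.6 and 106 in Control3 and 1.94 and 0 with MS-275, with within-number differences of -3.82 and -6.74 on the log2 scale. XAF1, an inhibitor of the apoptosis blocker XIAP, was 38.6 and 36.4 in Control3 and 5.81 and 3.99 with MS-275 (-2.54 and -2.91). Both MS-275 libraries lay below both controls for each of these genes, and the size of the IRF7 difference depends on the 1 added to its value of 0. OAS3, which makes the same 2-5A messenger, was 661 and 925 in Control3 and 158 and 137 with MS-275 (-2.06 and -2.75), and TRIM22, a RING finger ubiquitin ligase, was 3257 and 3953 in Control3 and 1062 and 1010.5 with MS-275 (-1.62 and -1.97). IRF9, the DNA-binding partner of STAT2, was 22.8 and 40.4 in Control3 and 5.81 and 11 with MS-275 (-1.80 and -1.79). IFI35, which interacts with the ISG product NMI, was 474 and 1134 in Control3 and 168 and 407 with MS-275 (-1.50 and -1.48).

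With HERC6 (156 and 355 to 62.9 and 25.9), these genes were the 7 members more than 1 lower in both numbers, where 4.85% of all genes were. For 0 members was the difference above 1 in both numbers, where 6.81% of all genes were. In all, 13 of 36 members had both MS-275 libraries below both controls, against 19.3% of all genes, and 1 had both above, against 19.5%. The 1 above was LGALS3BP, a secreted glycoprotein that binds galectin (7142 and 8355 in Control3 and 9388 and 10549 with MS-275, 0.39 and 0.34).

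The 3 genes of the ADP-ribosylation group were all lower in both numbers with MS-275. PARP9 was 928 and 1317 in Control3 and 477 and 454 with MS-275 (-0.96 and -1.53) and its partner DTX3L, a ubiquitin ligase, was 1973 and 1828 in Control3 and 1103 and 678 with MS-275 (-0.84 and -1.43). PARP14 was 2472 and 1536 in Control3 and 1615 and 629.8 with MS-275 (-0.61 and -1.28), and its control library 2 lay below MS-275 library 1. BST2 (tetherin), which holds budding virions at the cell surface, was 9.9 and 156 in Control3 and 154 and 266 with MS-275 (3.83 and 0.77), with a low value in Control3 library 1 alone. UBE2L6, the E2 enzyme for ISG15, was 2101 and 3974 in Control3 and 2885 and 5433 with MS-275 (0.46 and 0.45), higher in both numbers by less than the distance between the 2 numbers. ISG15 itself was 844 and 3370.4 in Control3 and 644 and 1538 with MS-275 (-0.39 and -1.13), and USP18, the protease that removes it, was 261 and 1086 in Control3 and 195 and 508 with MS-275 (-0.42 and -1.09), also less than that distance. IFI6 went in opposite directions in the 2 numbers (622 and 3202 in Control3 and 1187 and 2851 with MS-275, 0.93 and -0.17).

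For the IFIT genes, whose proteins bind the 5′ ends of viral RNA and which lie side by side at chr10:89283694-89421605, the 2 numbers did not give the same picture. IFIT1 was 624 and 1741 in Control3 and 1119 and 743 with MS-275 (0.84 and -1.23), while IFIT3 was 525 and 1374 in Control3 and 332 and 284 with MS-275 (-0.66 and -2.27). Only for IFIT3 of the 4 did both MS-275 libraries lie below both controls. SAMD9 and SAMD9L, neighbours on chromosome 7, differed more between the numbers than between MS-275 and control: SAMD9 was 427 and 94 in Control3 and 517 and 94.7 with MS-275, and SAMD9L was 911 and 228 in Control3 and 606 and 109.6 with MS-275.

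Without the replicate number, limma called 0 of 36 members and 0 of 15883 genes with MS-275, that is, 0.0% in either direction. At an unadjusted p under 0.05 there were 9 members and 1730 genes, and count tests were not run for this comparison. The median log2 fold change was -0.75 for the members and -0.01 for all genes, and it ran from -1.19 to -0.33 when each library was left out in turn. The lowest of these medians was that without Control3 library 1, and the highest that without Control3 library 2.

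**Figure D2:**
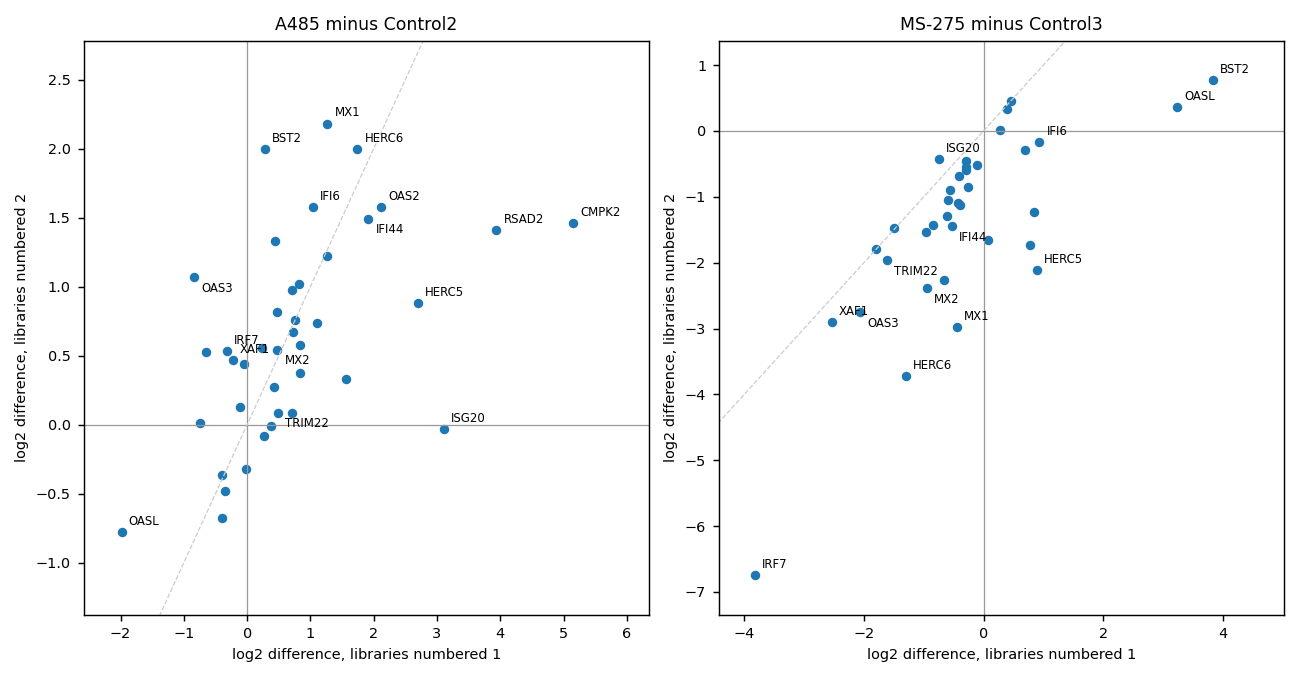
Log2 differences between treated and control library within replicate number, for libraries numbered 1 (horizontal axis) and 2 (vertical axis), one point per member, for A485 (left, 40 members) and MS-275 (right, 36 members), with the dashed line marking equal differences. With MS-275 25 points lie below 0 on both axes and IRF7 lies furthest down, while with A485 25 points lie above 0 on both. Of all genes tested, 6415 of 15883 were lower in both numbers with MS-275, and 6128 of 16084 were higher in both with A485.

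Pyruvate was compared with Control6, and here replicates lay close together. The members split: 13 of 29 were called lower and 7 higher, where 23.1% of all genes were called lower and 31.0% higher. The median of the members was -0.86 and that of all genes -0.01. Since pyruvate was part of the choice of members, these counts are a description. IFI6 at chr1:27666064-27672212 (hg38) had the lowest fold change, with 7359.6 and 7738 in Control6 and 183 and 194 with pyruvate and a log2 fold change of -5.32 ± 0.09 (SE, 2 libraries in each group). ISG15 at chr1:1001138-1014540 was 6138 and 7035 in Control6 and 293 and 334 with pyruvate (-4.39 ± 0.10). These genes had the highest levels per kilobase of exon of the members in Control6, an order that depends on the length used. For each of them both pyruvate libraries lay far below both controls.

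Pyruvate fold changes went with base composition over the whole gene list: across 11888 genes, Spearman's rho was -0.70 with the GC content of the transcript and 0.31 with its length, and over the 29 members it was -0.59 and 0.56. The points share their libraries, and these values are descriptions across genes. The 13 members called lower had a median GC content of 55.7% (41.8% to 63.4%) and the 7 called higher one of 42.4% (37.1% to 43.8%). Pyruvate fold changes are therefore given a second time after a smooth trend on GC content and length was removed from every library. On that scale 10 members were called lower and 3 higher, where 10.3% of all genes were called lower and 21.1% higher, and 7 of the members called lower and 1 called higher were so on both scales. The medians were then -0.59 for the members and 0.20 for all genes. Whether the trend is technical was not tested.

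**Figure D3:**
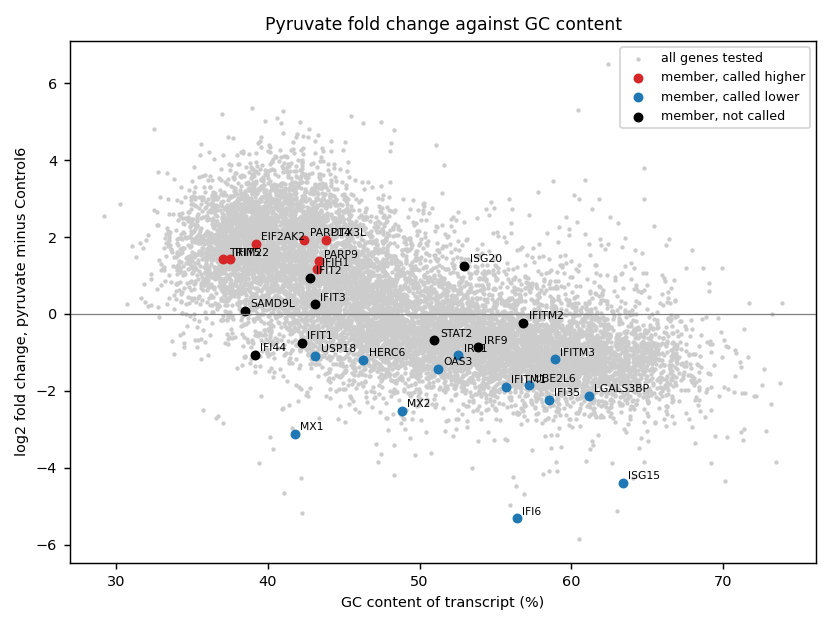
Log2 fold change of pyruvate against Control6 (vertical axis) against the GC content of the transcript in percent (horizontal axis), for all genes with a known GC content in grey and for the 29 members in colour by their call. The grey cloud falls from left to right, the 7 members called higher lie at 37.1% to 43.8% GC, and MX1 lies at -3.11 on the left side of the plot, at 41.8% GC.

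The genes of the ISG15 pathway were lower together. All 4 listed members were called lower as deposited, and 3 after the trend was removed. ISG15 kept a log2 fold change of -2.88 ± 0.08. USP18 was 565 and 637 in Control6 and 257 and 310.4 with pyruvate (-1.08 ± 0.15, then -1.81 ± 0.14 without the trend), and HERC6 was 171 and 137 in Control6 and 69.8 and 62.8 with pyruvate (-1.19 ± 0.27, then -1.34 ± 0.29). UBE2L6 was 3661 and 3722 in Control6 and 1044 and 993 with pyruvate (-1.86 ± 0.08), and without the trend it was -0.59 ± 0.06 and no longer called.

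Both MX GTPases, neighbours at chr21:41361999-41470071, were called lower on both scales. MX1 was 645 and 565 in Control6 and 76.7 and 61.9 with pyruvate (-3.11 ± 0.20, then -4.46 ± 0.19). MX2, which restricts retroviruses at the nuclear pore, was 351 and 422 in Control6 and 61 and 72 with pyruvate (-2.52 ± 0.22, then -2.23 ± 0.26). IFI6 stayed at -4.06 ± 0.07 without the trend. IFI44, with few reads (48.1 and 32.6 to 17.7 and 19.4), was -1.06 ± 0.51 and not called as deposited, and -2.27 ± 0.34 and called lower without the trend.

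Among the genes for double-stranded RNA, OAS3 was lower on both scales (1833 and 1682 in Control6 and 631 and 672 with pyruvate, -1.43 ± 0.10, then -1.11 ± 0.10). EIF2AK2 was 484 and 387 in Control6 and 1457 and 1617 with pyruvate (1.82 ± 0.13) and called higher, while without the trend its fold change was 0.07 ± 0.10. IFIH1 (MDA5), a sensor of long double-stranded RNA, was 21.6 and 20.6 in Control6 and 55.1 and 42.5 with pyruvate (1.16 ± 0.47, then 0.35 ± 0.39), again called higher only as deposited.

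The ADP-ribosylation group was the 1 role in which all members were called higher as deposited. PARP14 was 94.3 and 109 in Control6 and 411 and 366 with pyruvate (1.93 ± 0.20), DTX3L 312 and 295 in Control6 and 1153 and 1177 with pyruvate (1.94 ± 0.12) and PARP9 257 and 142 in Control6 and 498 and 496 with pyruvate (1.37 ± 0.24). Without the trend DTX3L was 1.02 ± 0.11 and still called, and PARP14 at 0.61 ± 0.20 and PARP9 at 0.31 ± 0.25 were not. Their direction as deposited was opposite to that of ISG15 and the MX genes, although the promoters of PARP9, DTX3L and PARP14 held the same core as that of ISG15.

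The IFIT cluster did not move as 1 unit after pyruvate. IFIT1 was 166 and 279.9 in Control6 and 111 and 147 with pyruvate (-0.75 ± 0.27), IFIT2 49.1 and 33.6 in Control6 and 68.8 and 90.5 with pyruvate (0.94 ± 0.37), IFIT3 221 and 270.2 in Control6 and 327 and 258 with pyruvate (0.25 ± 0.19) and IFIT5 84.5 and 81.4 in Control6 and 239 and 209 with pyruvate (1.42 ± 0.23). Only IFIT5 was called, and higher. Without the trend IFIT5 stood at -0.05 ± 0.16 and IFIT2 at 0.03 ± 0.34, IFIT3 at -0.65 ± 0.19 and IFIT1 at -1.91 ± 0.29, and only IFIT1 was called, and lower.

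The IFITM genes, neighbours at chr11:303655-329475 whose products share much of their sequence so that reads may be split among them, depended on the scale. IFITM3 was 15291 and 16609 in Control6 and 7244 and 6872 with pyruvate (-1.18 ± 0.06) and called lower, and 0.18 ± 0.04 without the trend. IFITM1 was 1559.7 and 1522 in Control6 and 389 and 439 with pyruvate (-1.90 ± 0.11, then -0.68 ± 0.10 and not called). IFITM2 was 2767 and 2696 in Control6 and 2421 and 2258 with pyruvate (-0.22 ± 0.07), and 1.05 ± 0.06 and called higher without the trend.

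Of the transcription factors STAT2 and IRF9 were not called on either scale and IRF1, an early interferon-induced factor, was called lower only as deposited. STAT2 was 6332 and 6043 in Control6 and 3851 and 3852 with pyruvate (-0.68 ± 0.06, then -0.30 ± 0.06). IRF1 was 1367 and 1444 in Control6 and 714 and 621 with pyruvate (-1.08 ± 0.11, then -0.46 ± 0.13), and IRF9 was 49.1 and 58.6 to 28.5 and 29.6 (-0.86 ± 0.42, then -0.09 ± 0.45). Among the rest, LGALS3BP was 13182 and 13570.5 in Control6 and 3215 and 2936 with pyruvate (-2.12 ± 0.06, then -0.72 ± 0.06 and not called), and IFI35 was 1030.3 and 1017 in Control6 and 199.6 and 238 with pyruvate (-2.23 ± 0.14, then -0.89 ± 0.13 and not called). TRIM22 was 486 and 519 in Control6 and 1369 and 1334 with pyruvate (1.43 ± 0.10, called higher), and -0.17 ± 0.07 without the trend. ISG20, an exonuclease of single-stranded RNA, had few reads (21.6 and 11.9 to 37.4 and 42.5) and was 1.26 ± 0.55, then 1.88 ± 0.55 and called higher. SAMD9L, a translation inhibitor, was 60.9 and 65.1 to 64.9 and 68.4 (0.08 ± 0.32, then -1.63 ± 0.25 and called lower).

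With pyruvate, scaling all libraries to the same total put the all-gene median at 0.30 and gave 9 members called lower and 9 higher. Quantile normalization, with an all-gene median of -0.17, gave 15 lower and 4 higher. The shares of all genes called on these scales are not given here, so the counts are not read as a result about the members. MKI67 was 161 and 71.6 in Control6 and 2995 and 2999 with pyruvate, and the lamin gene LMNB1 was 107 and 111 in Control6 and 2347 and 2283 with pyruvate. The part of cell division in the members' levels was not tested.

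**Figure D4:**
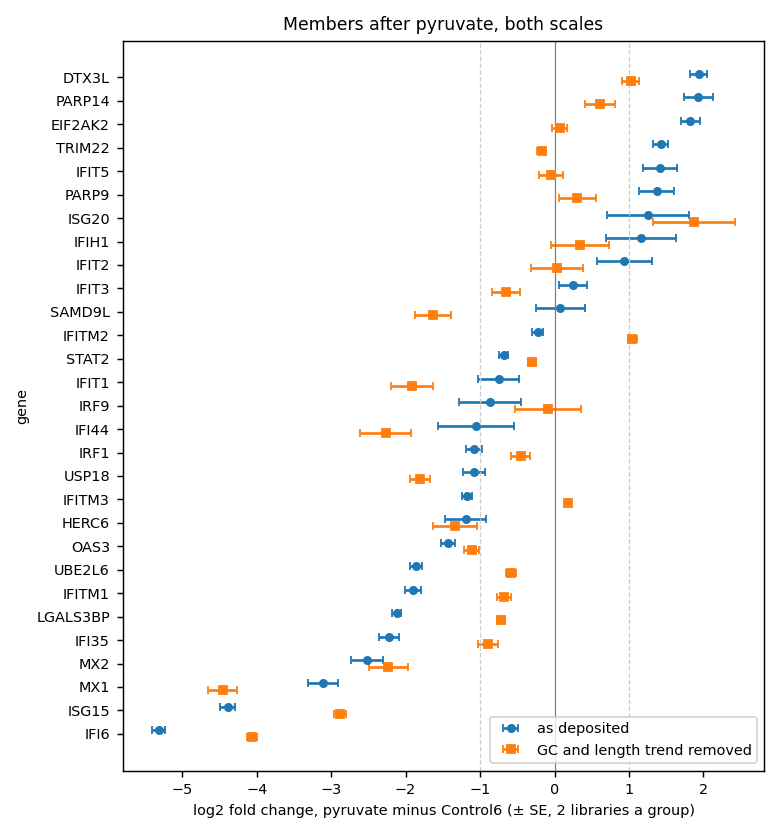
Log2 fold change of pyruvate against Control6 (horizontal axis, bars are SE over 2 libraries in each group) for the 29 members (vertical axis), as deposited (blue circles) and with the GC and length trend removed (orange squares), with dashed lines at 1 and -1. IFI6, ISG15, MX1 and MX2 lie below -1 on both scales, while EIF2AK2, TRIM22 and IFIT5 lie above 1 as deposited and near 0 without the trend.

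The same members can be set side by side over the 3 treatments, with pyruvate values as deposited. By limma without the replicate number, no member was called with A485 or MS-275. Some genes had negative fold changes with both MS-275 and pyruvate and others with 1 of them. IFI6 was 1.31 with A485, 0.38 with MS-275 and -5.32 with pyruvate on the log2 scale, and ISG15 was 0.40, -0.76 and -4.39. TRIM22 was 0.28, -1.79 and 1.43, and PARP14 was 0.76, -0.95 and 1.93. For MX1 the values were 1.72, -1.71 and -3.11, for HERC6 1.87, -2.51 and -1.19, for OAS3 0.11, -2.40 and -1.43, and for IFI35 0.71, -1.49 and -2.23. The MS-275 value of MX1 (-1.71 ± 0.94) rested mostly on Control3 library 2. MX1 was 66.4 and 432 in Control3 and 48.4 and 53.8 with MS-275 (-0.45 and -2.98 within number). Without the GC and length trend the pyruvate values were -0.17 for TRIM22, 0.61 for PARP14 and -0.89 for IFI35, none of them called. IFI6, ISG15, MX1, HERC6 and OAS3 were still called lower. No test of these differences between treatments was made.

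A list of 77 other genes of the interferon pathway, outside the rule for the members, was read from the same fits, and it too was drawn up with earlier results of these data known. None of 10 interferon genes was listed for pyruvate, and IFNE, an interferon of epithelia, was the only one listed for A485 (41.7 and 22.0 in Control2, 25.3 and 17.8 with A485) and MS-275 (12.9 and 2.02 to 30.02 and 5.98). IFNB1 and the IFNA genes searched were not listed, so no level can be given for them.

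With A485, 2 of 60 pathway genes tested rose and 3 fell, where 3.31% and 7.06% of all genes did, so the counts are not a result about the list. SOCS1, which switches off JAK signalling, fell (455 and 602 in Control2 and 86.8 and 59.7 with A485, -2.84 ± 0.35, adjusted p = 0.00777 by limma). IKBKE, a kinase upstream of IRF3 and IRF7, fell as well (693 and 984 in Control2 and 194 and 250.3 with A485, -1.90 ± 0.29, adjusted p = 0.0143 by limma), and so did SLFN5 (4709.8 and 8011 in Control2 and 1549 and 2417 with A485, -1.67 ± 0.33, adjusted p = 0.0283 by limma). APOL1, an apolipoprotein that lyses trypanosomes, rose (144 and 399 in Control2 and 833 and 1431 with A485, 2.18 ± 0.52, adjusted p = 0.048 by limma), and TDRD7 rose (811 and 925 in Control2 and 1568 and 1925 with A485, 1.003 ± 0.20, adjusted p = 0.0302 by limma). The median over the list was 0.03 against 0.01 for all genes. Without Control2 library 1 limma called 1 of the pathway genes, and without any 1 of the other 3 libraries it called 0.

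The receptor gene IFNAR1 was 2986 and 4176 in Control2 and 4436 and 5578 with A485 (0.49 ± 0.23, adjusted p = 0.205 by limma) and was not called. The 5 receptor genes tested had fold changes of -0.40 to 0.49 with A485 and -0.18 to 0.65 with MS-275, and the kinase genes JAK1, JAK2 and TYK2 had -0.31 to 0.14 and -0.88 to -0.24, none of them called. With MS-275, limma called 0 of 61 pathway genes, and likewise 0 of the 15883 in the whole comparison. Unadjusted limma p-values below 0.05 belonged to 6 of these 61, beside 1730 of the 15883. The counts are therefore not read as a result about the list. The list median was -0.22, against -0.01 for all genes.

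After pyruvate, 15 of 52 pathway genes rose and 11 fell, and without the GC and length trend 7 rose and 7 fell, 6 rising and 3 falling on both scales. Of all genes 31.0% rose and 23.1% fell as deposited, so the counts as deposited lie near those of all genes. Without the trend 21.1% of all genes rose and 10.3% fell, a larger share rising and a slightly smaller share falling than in the list. The counts are read as a result about the list on neither scale. JAK1 rose on both (2368 and 2260.1 in Control6 and 8400.3 and 8671 with pyruvate, 1.88 ± 0.06, adjusted p = 6.0e-10 by limma, then 1.53 ± 0.06). IFNAR1 rose as deposited (361 and 373 in Control6 and 1441 and 1444 with pyruvate, 1.97 ± 0.11, adjusted p = 1.4e-08 by limma) and was 0.82 ± 0.10 and not called without the trend. JAK2, the kinase of the interferon gamma receptor, rose likewise (23.6 and 45.6 to 126 and 117, 1.86 ± 0.38, adjusted p = 8.5e-04 by limma, then 0.19). TYK2 (2154 and 2082 in Control6 and 1243 and 1202 with pyruvate) had a fold change of -0.79, past the p threshold but under the fold minimum, and 0.20 without the trend. IFNGR1 (0.97 ± 0.15, then -0.20 ± 0.14) and IFNGR2 (-0.42 ± 0.50, then 0.28 ± 0.56) were not called on either scale. IL10RB, with few reads (38.3 and 25 to 22.6 and 24), was -0.39 ± 0.52 and not called as deposited, and -1.54 ± 0.42 and called lower without the trend.

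GBP1, a guanylate-binding protein induced mainly by interferon gamma, rose on both scales (236 and 239 in Control6 and 1916 and 1872 with pyruvate, 2.99 ± 0.11, adjusted p = 9.1e-10 by limma, then 1.62 ± 0.08). APOL2 fell on both (3628 and 3828 in Control6 and 918 and 865 with pyruvate, -2.06 ± 0.08, adjusted p = 1.5e-09 by limma, then -1.07 ± 0.07). SLFN5 rose as deposited (238 and 238 in Control6 and 1497 and 1585 with pyruvate, 2.69 ± 0.11, adjusted p = 2.5e-09 by limma) and was 0.92 and not called without the trend. CGAS, the sensor of cytosolic DNA, rose on both scales (81.5 and 61.8 to 248 and 230.0, 1.73 ± 0.24, adjusted p = 4.5e-05 by limma, then 1.12). The IRF3 gene (1544 and 1545 to 844 and 677, -1.03 ± 0.11, adjusted p = 5.8e-06 by limma) and IKBKE (812 and 868 to 425 and 383, -1.06 ± 0.12, adjusted p = 7.9e-06 by limma) fell as deposited and turned to 0.25 and 0.16 without the trend. Of the negative regulators, PTPN1 fell (-1.10, then -0.74), and PTPN2 (1.79, then 0.47) and PIAS1 (1.27, then -0.37) rose as deposited, none of them called without the trend. Equal library totals gave 19 pathway genes called higher and 7 lower, and the share of all genes on that scale is not given here.

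In the mouse muscle files 12 of 36 orthologs were listed. The files' gene levels went against the tissue label: of 10 muscle genes 6 were not listed, among them Acta1 and Tnnt3, and Ckm, the muscle creatine kinase, was at 13.4 to 70.9. The titin gene Ttn was listed at 72083 to 366881 and the myoglobin gene Mb at 1758 to 4302. Of 8 genes that every cell uses 7 were not listed, Actb and Eef1a1 among them, while Myh13, the myosin of eye muscles, had the second highest mean in both lists. How these values arose was not tested, and the ortholog values are given as listed under their symbols, without being read as the level of those genes. With MS-275 Bst2 was 9.08 and 8.22 in Control4 and 314 and 208 with MS-275 (4.73 ± 0.41, adjusted p = 0.0065 by limma), Oas2 0 and 4.11 in Control4 and 72.9 and 65.8 with MS-275 (4.96 ± 0.93, adjusted p = 0.0217 by limma) and Oas3 46.7 and 37 in Control4 and 333 and 155 with MS-275 (2.43 ± 0.44, adjusted p = 0.0201 by limma), which were called higher. The size of the fold change under Oas2 depends on the 1 added before the log, as its Control4 values were 0 and 4.11. Usp18 was 1847 and 2262 in Control4 and 540.5 and 911 with MS-275 (-1.54 ± 0.32, adjusted p = 0.0281 by limma) and Ifi27 245 and 286 in Control4 and 81.5 and 123 with MS-275 (-1.39 ± 0.32, adjusted p = 0.035 by limma), which were called lower.

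These were 3 of 12 orthologs higher and 2 lower, against 9.24% and 6.97% of all genes. With libraries scaled to the same total, where the all-gene median was 0.95, 6 were called higher and 0 lower, while without MS-275 library 1 there were 0 calls and without Control4 library 1 there were 2. With NALA the values for Oas3 were 143 and 127 in Control5 and 35.7 and 32.8 with NALA (-1.95 ± 0.24, adjusted p = 2.6e-07 by limma) and for Bst2 34.4 and 32.8 in Control5 and 10.7 and 16.8 with NALA (-1.26 ± 0.42, adjusted p = 0.0417 by limma), the 2 of 12 called lower, with 0 called higher, against 1.79% and 1.56% of all genes. Without Control5 library 1 or library 2, 1 was called.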

How the data were processed

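RNA-seq was analysed from 20 libraries in 10 groups of 2, grouped by their titles, 12 from IMR90 cells and 8 from mouse muscle. The authors trimmed reads with Trim Galore (0.6.10), aligned them with HISAT2 (2.2.1) to hg38 or mm10, sorted them with SAMtools (1.7), counted them with featureCounts (2.0.6) and normalized with DESeq2 (1.34.0). The deposited values are a signal, namely counts divided by 1 size factor per library. Annotation and strand setting are not given in the sources used here, so overlapping, antisense and near-identical genes may share reads.

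Values were compared as log2(value + 1), which understates the change of low genes, keeping genes whose mean across a comparison's 4 libraries reached 10. Tests used limma (3.58.1) in R (4.3.3) with trended variances and no covariates, and p-values were adjusted by Benjamini-Hochberg over every gene tested. Calls needed an adjusted p under 0.05 and an absolute log2 fold change above 1. The members and gene lists were chosen with earlier results of these data known. Named were all members, with values by library for those with the largest fold changes of each role, the called pathway genes with the smallest adjusted p (up to 3 a role), interferons, receptors and kinases in any case, and called orthologs. A further gene of the rule is not reported here. Genes of dividing cells, CXCL10 and the muscle genes were added after their values were seen.

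Exon lengths, GC content and positions came from GENCODE version 44. The GC and length trend was fitted per library with splines of 5 degrees of freedom. Whole reads (within 0.01 read) were recovered by dividing by the value of 1 read, and edgeR (4.0.16) and DESeq2 (1.42.0) were run on them for A485 and muscle only. Alternatives covered pseudocounts, filters, scaling, the replicate block, the fold minimum, the trend and each library left out. Scripts were tested on simulated data. More reads narrow counting error only. The 2 libraries of a group limit the precision, and groups of 2 allow no outlier test.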

Additional observations from a re-analysis of the deposited data

Results flagged for a closer look

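Under MS-275, values listed for 3 members in IMR90 and under the symbols of their orthologs in muscle lay on opposite sides of their controls, with the groups not overlapping. Such groups were common: of all genes in IMR90 19.3% lay below without overlap and 19.5% above. In muscle 3055 of 9494 genes lay below and 3111 above. The difference between the cell line and the tissue was not tested. The muscle lists lack most of the defining genes of muscle, so the muscle values may not be the levels of the genes whose symbols they carry, and no difference in response is read from them. Of the muscle values only those under Oas3 were called, and of the IMR90 values none. For OAS3 the IMR90 values went from 661 and 925 to 158 and 137 and those under Oas3 in muscle from 46.7 and 37 to 333 and 155, a difference of -4.83 between the log2 fold changes. STAT2 went from 5533 and 6110.2 to 4499 and 4068 and Stat2 from 824 and 846 to 1576 and 1075, a difference of -1.08. LGALS3BP went from 7142 and 8355 to 9388 and 10549 and Lgals3bp from 41.5 and 52 to 40.8 and 25.6, a difference of 0.88. Under Lgals3bp the groups barely parted, with a log2 difference of -0.03 within number 1.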

How the results depend on the processing

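With a replicate block, 8 members were called with A485 (5 with the GC and length trend also removed) and 14 with MS-275, 2 higher and 12 lower (11 with the trend removed), and pathway calls were 10 and 7 (7 for MS-275 with the trend removed). Shares of all genes called are given only for the main fit and the trend removal. Counts from the replicate block and the other alternatives are therefore not read as results about the lists. The labels do not say that numbers pair libraries. Same-numbered libraries' deviations correlated at 0.32 for A485, 0.73 for MS-275 and 0.00 for pyruvate over all genes, and -0.11 and -0.01 in muscle. With crossed numbers in the muscle MS-275 comparison, added after the data were seen, 6 orthologs were called. With A485, DESeq2 called 1 member and 9 pathway genes and equal library totals 2 and 8. With pyruvate, 13 members and 14 pathway genes were called once the GC and length trend was removed, with or without the replicate block, and without the block 8 (7 lower, 1 higher) and 9 (3 lower, 6 higher) of them were also called as deposited. Among the genes called as deposited, this turned the fold changes of IFIT5 (-0.047), IFITM3 (0.18), TRIM22 (-0.17), IKBKE (0.16), IRF3 (0.25) and PIAS1 (-0.37). Among the members not called as deposited, IFITM2 turned to 1.05 and SAMD9L to -1.63, both then called, and IFIT3 to -0.65. The cause was not tested. For the NALA orthologs DESeq2, equal library totals, a mean of at least 50, a pseudocount of 10 and quantile normalization each called 1. Leaving out each library in turn gave 0 called members for A485, 0 to 5 for MS-275 and 17 to 23 for pyruvate. Pathway calls were 0 to 1, 0 to 2 and 23 to 27 in that order, and ortholog calls 0 to 4 for MS-275 and 1 to 2 for NALA. A lone library was assumed to vary like the other group, and shares of all genes are not given for these fits. Medians in the controls moved by less than the spread between libraries when scaled over the genes listed in all 3 comparisons. Apart from these, the alternatives run gave counts within 1.5 times of those reported. For low genes such as IRF7, RSAD2 and CMPK2 the depth limits the size of a fold change.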
